A study of Populus trichocarpa and Populus tremula x Populus alba with 22 samples.

Results

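The response of the poplar stem to 21 days without iron was measured in the 3rd internode of Populus trichocarpa, in 6 of the 22 RNA-seq libraries of the study. The members were taken as the 6 columns of the internode table, 3 libraries of Fe-deprived plants (0 µM Fe) and 3 of control plants (10 µM Fe). Plants grew in hydroponics, and the labels give them the codes P22, P30 and P7 without Fe and P11, P13 and P17 with Fe. Young leaves of the same 6 plants were sequenced too. The other 10 libraries came from a hybrid, Populus tremula x Populus alba, sampled at an age of 4 months. They are 3 leaf and 2 stem libraries of plants overexpressing PtrbHLH011, a basic helix-loop-helix protein, and 3 leaf and 2 stem libraries of plants with an empty vector. The labels name no promoter for that construct and no genotype for the hydroponic plants. All overexpression libraries share 1 code and all empty-vector libraries another, and whether a code stands for a plant or a line is not given here. Overexpression and other differences between those plants or lines therefore cannot be told apart. Each internode library is labelled as a biological replicate with its own plant code.

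Iron is a cofactor of heme proteins and of iron-sulfur proteins, and plants need it for respiration, for photosynthetic electron transport and for making chlorophyll. Plants other than grasses reduce ferric iron at the root surface and import it, and they carry it through xylem and phloem bound to citrate and to nicotianamine. Basic helix-loop-helix transcription factors relay the shortage to the uptake genes, and ferritin, the storage protein, is held back when iron is short. A young internode holds elongating tissue, vascular strands and a starting cambium, where walls of xylem and fibres are laid down. Genes are given below by ID, because no names stand beside the IDs in the deposited tables, so none of this background is tied to an ID. For the same reason the labelled tissue was not checked against named markers.

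The tissue labels were set instead against genes that differed between stem and leaf in the empty-vector plants. Only genes that passed the filter for testing in internode and in the stem and leaf of the overexpression experiment were used. Levels here are shares of each library's deposited total, and since the internode and leaf tables were normalized separately, these are comparisons of shares. The 930 genes that were at least 8-fold higher in empty-vector stem than in empty-vector leaf were, at the median, higher in internode than in young leaf of the same plant. Their median log2 internode minus leaf difference was 2.15 in P22, 2.12 in P30 and 2.27 in P7 without Fe, and 1.28 in P11, 1.20 in P13 and 1.49 in P17 with Fe. The 1553 genes at least 8-fold higher in empty-vector leaf had negative medians in all 6 plants, between -2.04 and -1.81 without Fe and between -2.32 and -1.59 with Fe. By these genes each internode library matched its tissue label.

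Depth was 44494399 to 63717656 reads in the Fe-deprived and 29840597 to 61396026 reads in the control libraries. A library had at least 1 read for 32488 to 33012 genes without Fe and for 31338 to 32487 genes with Fe, of 42950. The 100 most abundant genes held 12.5 ± 0.408% of the total without Fe and 12.6 ± 0.596% with Fe (SD, n = 3 each; two-sided p = 1 by exact permutation, where 3 against 3 cannot go below 0.1).

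Internodes of the Fe-deprived plants resembled each other more than those of the control plants did, which is given as a description with no test. Of 29219 genes tested, 224 were at least 4-fold apart between P22 and P30, 379 between P22 and P7, and 396 between P30 and P7. Between control plants the numbers were 1479 for P11 and P13, 1296 for P13 and P17, and 2723 for P11 and P17. P11 and P17 were thus further apart than any Fe-deprived library was from any control library, where the numbers ran from 1328 to 2403. The median SD over genes, on the log2(value + 1) scale, was 0.18 without Fe and 0.38 with Fe (n = 3 each), and 81.2% of genes had the larger SD among the controls. In young leaves of the same plants the median SD was 0.31 without Fe and 0.24 with Fe, and 40.5% of the 28632 genes tested there had the larger SD among the controls.

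**Figure D1:**
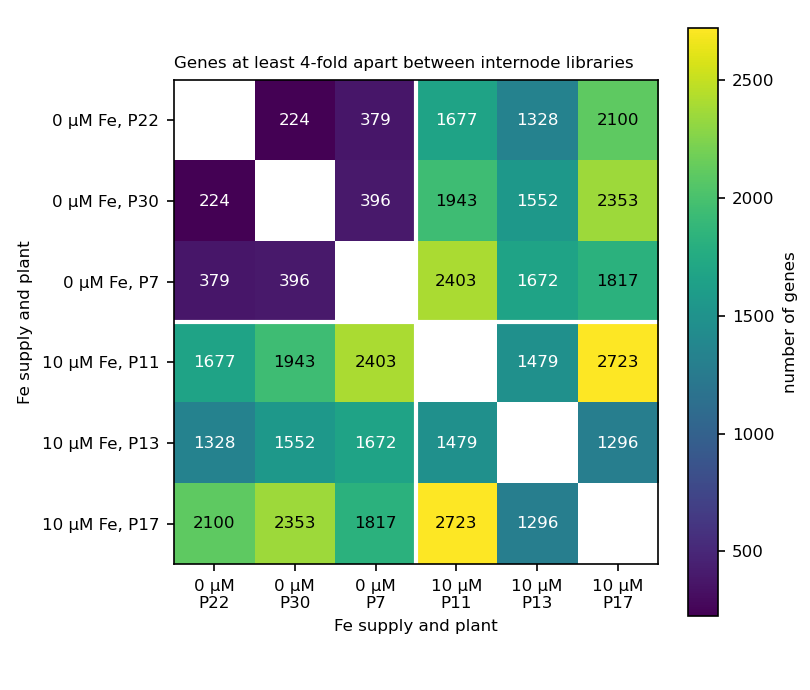
Number of genes at least 4-fold apart, on the value + 1 scale, between each pair of the 6 internode libraries, with Fe supply and plant code on both axes. The 3 pairs of Fe-deprived plants show 224 to 396 genes and the 3 pairs of control plants 1296 to 2723.

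The genes that set P11 and P17 apart were examined in the other libraries. Of the 2723, 966 were higher in P11 and 1757 in P17. All 3 Fe-deprived libraries lay between P11 and P17 for 1465 of them (53.8%), and the third control, P13, did so for 2208 (81.1%). Young leaves of P11 and P17 differed in the same direction for 1377 of the 2049 genes tested in leaf (67.2%), and by at least 4-fold for 256.

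After 21 days without Fe, 208 genes (0.712%) had changed in the internode. Of these, 131 genes rose (0.448% of the 29219 genes tested) and 77 fell (0.264%), by limma at an adjusted p under 0.05. Among the called genes the rises were larger than the falls. The median log2 fold change of the rising genes was 2.36, with a range of 0.91 to 8.64, and 83 of them rose at least 4-fold and 19 at least 16-fold. The falling genes had a median fall of 1.54 in size, from 0.76 to 5.37 in log2 units, and 28 fell at least 4-fold and 6 at least 16-fold. In these counts of large changes, genes at 0 reads throughout 1 group stand at the bound that 3 reads per library give; with them at that bound the medians were 2.35 for the rises and 1.54 in size for the falls. No bound was set for genes with a few reads in 1 group, whose sizes rest on the 1 added to each value. The fall of 5.37 is such a case, Potri.006G152500, with 1.43, 0 and 0 normalized counts in P22, P30 and P7. Potri.005G106000 and Potri.018G134700, with 0, 0 and 1.85 each, also count among the 6. The median log2 change over all genes tested was 0.01. The adjusted p of the called genes lay between 0.0251 and 0.0490, so none was far past the threshold.

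Falling genes were more abundant than rising ones. Ranked by mean value over the 6 libraries, and split into 4 classes of equal size, the lowest class held 35 genes that rose and 10 that fell, the next 48 and 10, the one above it 30 and 23, and the highest 18 and 34. In the higher group the falling genes had a median mean value of 2068 and the rising genes 586 normalized counts. From the lowest class to the highest, the median SE of the log2 change was 0.45, 0.26, 0.19 and 0.19. A gene of low level thus needed a larger change to be called, and its part in the larger size of the rises was not tested. Together the rising genes made up 0.576% (P22), 0.641% (P30) and 0.517% (P7) of the deposited total without Fe, and 0.109% (P11), 0.145% (P13) and 0.0898% (P17) with Fe. The falling genes made up 0.237%, 0.221% and 0.204% in P22, P30 and P7 and 0.628%, 0.707% and 0.628% in P11, P13 and P17. These shares do not overlap between the groups, which follows from how the genes were called.

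**Figure D2:**
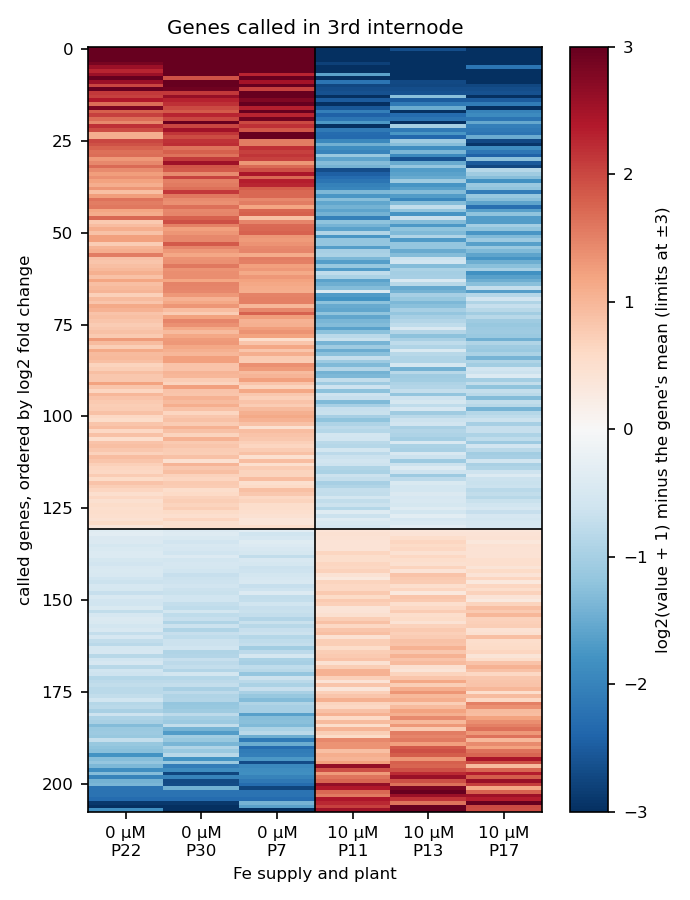
The 208 genes called in the internode (rows, ordered by log2 fold change, the line parting 131 rising from 77 falling genes) in the 6 libraries (columns, by Fe supply and plant), coloured by log2(value + 1) minus the gene's mean. Each gene has its 3 Fe-deprived libraries on one side of its 3 controls.

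Among the called genes, which a test that asks for small spread within groups had picked, the median SD was 0.22 without Fe and 0.28 with Fe, and 61.5% had the larger SD among the controls. The median position of the rising genes, as log2(value + 1) minus each gene's mean, was 0.95 in P22, 1.32 in P30 and 1.28 in P7, and -1.33 in P11, -1.07 in P13 and -1.12 in P17. For the falling genes it was -0.73, -0.79 and -0.86 in P22, P30 and P7, and 0.75, 0.86 and 0.85 in P11, P13 and P17. The control nearest to the Fe-deprived plants was P11 for 42, P13 for 51 and P17 for 38 of the rising genes, and P11 for 32, P13 for 16 and P17 for 29 of the falling genes.

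The number of calls was small beside the number of genes whose groups were apart. In 8013 genes (27.4% of those tested) the 3 Fe-deprived values lay all above or all below the 3 control values, 4308 higher (14.7%) and 3705 lower (12.7%). An unadjusted p under 0.05 was reached by 5547 genes, 2986 of them higher and 2561 lower without Fe. No gene was called without P13, without any single Fe-deprived library, or without both libraries of replicate 3 (P7 and P17), whose labels alone carry a library name. Without P11, 1499 genes were called, and falls then outnumbered rises, with 653 rising and 846 falling. Without P17 there were 1090 calls, 688 rising and 402 falling. DESeq2 called 3328 genes, 1643 rising and 1685 falling, a more even split than that of limma, and edgeR called 97, 63 rising and 34 falling. With the replicate number as a block there were 401 calls, 235 rising and 166 falling, and 146 of the 208 were among them.

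Some called genes had no read in any library of 1 group. Of the rising genes, 12 had 0 reads in all 3 control internodes and means of 12.5 to 398 normalized counts without Fe. Set against a floor of 3 reads per library, they were at least 3.58-fold to at least 114-fold higher. Of the falling genes, 5 had 0 reads in all 3 Fe-deprived internodes and means of 12.1 to 23.6 with Fe, and they were at least 4.55-fold to at least 8.86-fold lower. A value above 0 was found in at least 1 young leaf library for 6 of the 12 and for all 5. Among the 12, Potri.002G055533, Potri.002G055566 and Potri.005G206901 had similar values. In P22, P30 and P7 these were 188, 177 and 767 for the first, 203, 183 and 807 for the second, and 183, 171 and 528 for the third. They also rose in young leaf (limma, adjusted p = 0.00160, 0.00785 and 0.00320). Whether reads of such genes were counted apart is not known.

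The 4 genes described next were named by a rule that asks for the lowest adjusted p over limma, limma with the block and edgeR. Potri.003G116700 had 515, 653 and 732 normalized counts in the Fe-deprived internodes P22, P30 and P7, against 52.6, 66.4 and 88.3 in the controls P11, P13 and P17. The lowest Fe-deprived value was several times the highest control value. It averaged 633 ± 109.6 without Fe and 69.1 ± 18.01 with Fe (SD, n = 3 each), a 9.16-fold rise. On the log2 scale limma gave 3.19 ± 0.26 (SE), at an adjusted p of 0.0251. Potri.003G083700 had 198, 233 and 234 normalized counts in P22, P30 and P7, against 7.97, 8.66 and 12.1 in P11, P13 and P17. Its control values were low, since 3 reads correspond to 2.79 to 4.78 normalized counts in these libraries. Its log2 fold change was 4.41 ± 0.29 (SE; limma, adjusted p = 0.0251).

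Potri.017G014100 had 1757, 1656 and 1726 normalized counts in the Fe-deprived internodes, against 6338, 7925 and 6649 in the controls, in the same order of plants. Its Fe-deprived values lay within a narrow band, far under the lowest control. The mean was 1713 ± 52.1 without Fe and 6971 ± 841 with Fe (SD, n = 3 each), with a log2 fold change of -2.02 ± 0.13 (SE; limma, adjusted p = 0.0251). Potri.008G177100 had 977, 988 and 1139 normalized counts without Fe, against 2907, 3154 and 3105 with Fe. It fell to 1035 ± 90.4 in Fe-deprived internodes, against 3055 ± 131 in controls (SD, n = 3 each), and limma put the log2 fold change at -1.56 ± 0.12 (SE) with an adjusted p of 0.0251. For these 4 genes the adjusted p was 0.0305 by limma with the replicate block and 0.0353 by edgeR, values by which the rule had chosen them. Each lost its call without P13 or any single Fe-deprived library, or without both libraries of replicate 3. There the adjusted p by limma ran from 0.0597 to 0.209. The log2 fold changes kept their direction, which leaving out libraries could not alter, since the rule asked for no overlap between the groups.

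The falling gene with the largest value summed over the 6 libraries was also taken, a choice made after its values were seen. This gene, Potri.003G139600, had 10263, 9364 and 8378 normalized counts in P22, P30 and P7, against 38725, 39585 and 52541 in P11, P13 and P17. It stood at rank 648 of all genes by mean value without Fe and at rank 69 with Fe. The log2 fold change was -2.21 ± 0.20 (SE; limma, adjusted p = 0.0273), and its call was lost without the same libraries as those of the 4 genes above.

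**Figure D3:**
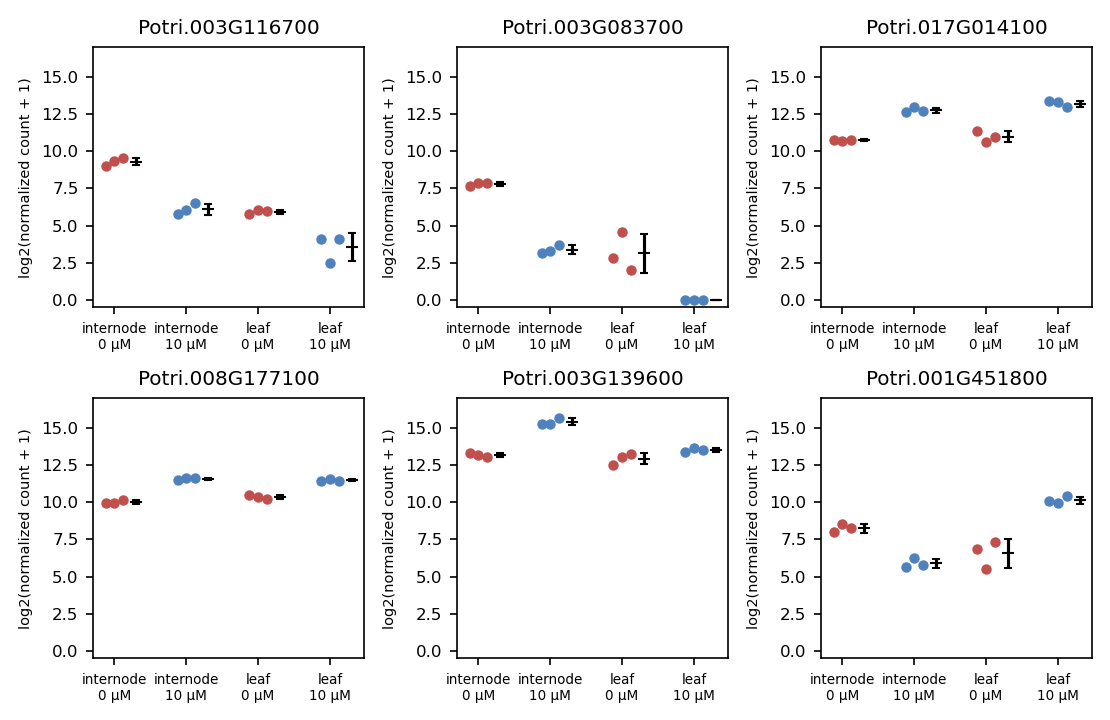
Values of 6 named genes as log2(normalized count + 1) in internode and young leaf, at 0 µM and 10 µM Fe; points are the 3 libraries of a group, and the bar beside them the mean ± SD. In the internode panels the 3 Fe-deprived libraries lie above the controls for Potri.003G116700, Potri.003G083700 and Potri.001G451800, and below them for the other 3 genes; levels of internode and leaf come from tables normalized separately.

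The genes called in internode were then followed in young leaves of the same plants. Of the 131 rising genes 91 were tested in leaf, and 21 of them (23.1%) rose there, while 2 (2.198%) fell. Those 2, Potri.001G451700 and Potri.001G451800, have IDs close in number and similar values, so they may not count as separate results. Over all genes in leaf 6.31% changed, 3.04% upward and 3.27% downward. Of the 77 falling genes 67 were tested in leaf, and 11 (16.4%) fell and 2 (2.99%) rose. The leaf log2 change was positive for 69 of the 91 rising genes and negative for 61 of the 67 falling genes, with medians of 0.63 and -0.68, against -0.01 over all genes tested in leaf. The 21 shared rises were 16.0% of the internode rises and 2.41% of the 870 leaf rises. The 11 shared falls were 14.3% of the internode falls and 1.17% of the 937 leaf falls. These counts depend on the leaf libraries: without 1 of them, 5 to 21 rising and 2 to 19 falling genes were shared.

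Among the genes that changed in the same direction in both tissues the median change was the larger in internode. This is a description only, since the choice of genes was uneven. A call was reached by 0.712% of genes in internode and 6.31% in leaf, so passing in internode favoured large internode changes. The median rise was 2.65 in internode and 1.69 in leaf on the log2 scale, with 13 of 21 larger in internode. The median fall was 1.56 in size in internode and 1.25 in leaf, with 6 of 11 larger in internode. Without 3 rises and 2 falls whose values were 0 throughout a group in either tissue, the medians were 2.41 in internode and 1.66 in leaf for the rises, and 1.44 and 1.17 in size for the falls. The test of the difference within plants called 0 of these 32 genes, and it called 135 of 27351 genes (0.494%) in all. A total of 107 of these 135 had the higher response in internode (0.391%) and 28 the lower (0.102%). That test found 1 gene with the replicate number as a block, and 0 without P30 or P13, 9 without P22 and 12 without P7. As a description over 27351 genes, which share their plants and are no replicates, Pearson's r between the changes in internode and in leaf was 0.32 and Spearman's rho was 0.25.

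**Figure D4:**
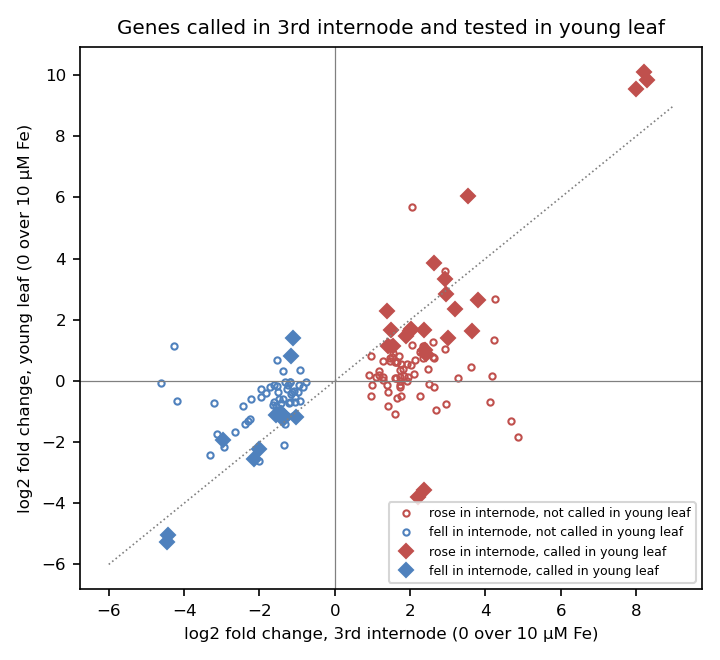
Log2 fold change (0 over 10 µM Fe) in young leaf against that in 3rd internode for the 158 genes called in internode and tested in leaf; filled diamonds mark genes called in leaf as well and the dotted line marks equal change. Most points lie in the quadrants of shared sign, 69 of 91 rising and 61 of 67 falling genes, and 2 filled diamonds of rising genes lie below 0 on the leaf axis.

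Of the genes named by rule, 3 changed in leaf in the same direction as in internode. Potri.003G116700 had 65.7, 60.6 and 54.04 normalized counts in leaves of P22, P30 and P7, against 16.1, 4.65 and 16.0 in P11, P13 and P17 (limma, log2 fold change 2.37 with SE 0.54, adjusted p = 0.0455). Potri.017G014100 had 1595, 1979 and 2591, against 10353, 9933 and 7963, in the same order (limma, log2 fold change -2.21 with SE 0.21, adjusted p = 0.00458). Potri.008G177100 had 1315, 1199.7 and 1417, against 2735, 3018 and 2799 (limma, log2 fold change -1.12 with SE 0.14, adjusted p = 0.00868). The groups do not overlap in leaf for any of these 3, and how common that is among all leaf genes is not given here. Potri.003G116700 lost its leaf call without any single leaf library other than that of P11 (limma, adjusted p = 0.0579 to 0.157). Their internode minus leaf responses, 0.83 ± 0.56, 0.20 ± 0.28 and -0.44 ± 0.20 (SE), did not pass the test (limma, adjusted p = 0.514, 0.763 and 0.356). Potri.003G083700 was below the filter in leaf, with 22.8, 2.96 and 6.12 normalized counts in P22, P30 and P7, and it is listed at 0 in the 3 controls.

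Other internode genes answered Fe deprivation differently from leaf. Among the 91 rising genes tested in leaf, the internode response was higher for 7 and lower for 0, by 1.74 to 6.71 log2 units, and 6 of these 7 had a negative leaf log2 change. Among the 67 falling genes it was lower for 4 and higher for 0, with differences of -3.52 to -2.00 for the 3 with no group at 0 throughout. Over all genes the shares were 0.391% higher and 0.102% lower, and 1 gene in all was called with the replicate block. The internode change that chose these genes is part of the difference, so their direction is no separate result. Potri.001G451800, chosen after its values were seen for the smallest p of this test among rising genes, had 249, 372 and 300.2 normalized counts in internodes of P22, P30 and P7, against 47.8, 74.1 and 54.9 in P11, P13 and P17. In leaves of the same plants it had 43.8, 159.7 and 116, against 1070.1, 969 and 1346. The gene thus rose in internode (limma, log2 fold change 2.37 with SE 0.27, adjusted p = 0.0354) and fell in leaf (-3.57 ± 0.45 SE; limma, adjusted p = 0.0105), and its responses differed by 5.93 ± 0.43 (SE; limma, adjusted p = 0.0135). That difference was not called with the replicate block (limma, adjusted p = 0.0694) or without P30, P7 or P13 (0.0558 to 0.0656), where it stayed between 5.93 and 6.21. Its internode call was lost without the same libraries as those of the 4 genes named by rule. Potri.001G451700, an ID close in number, had similar internode values, 224, 345 and 258 without Fe against 47.8, 67.4 and 59.5 with Fe. Its leaf log2 fold change was -3.80 (limma, adjusted p = 0.0118). Potri.003G139600 had 8335, 9436 and 5820.5 normalized counts in leaves of P22, P30 and P7, against 10603, 12906 and 11740.2 in P11, P13 and P17. Its leaf change did not pass the test (limma, log2 fold change -0.60 with SE 0.20, adjusted p = 0.117), nor did its tissue difference (-1.61 ± 0.27 SE; limma, adjusted p = 0.0743).

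Some called genes were too low for the test in leaf. There 40 rising and 10 falling genes were below the filter, 13 of the 40 and 2 of the 10 were listed at 0 in all 6 leaf libraries, and the highest value in any 1 leaf library was 521 normalized counts among the 40 and 22.1 among the 10. In the internode the 40 had a median mean value of 209.6 normalized counts without Fe and 18.5 with Fe, and the 10 had 14.1 without Fe and 236 with Fe.

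Genes typical of the stem were, at the median, higher in the Fe-deprived internodes. Classes were defined by the empty-vector libraries of the other experiment, which share no library with the internode. They hold only genes that passed the filter in internode and in the stem and leaf of that experiment. Stem genes with little or no signal in its leaves were thus left out. Of the 930 genes at least 8-fold higher in empty-vector stem than leaf, 24 rose (2.58%, against 0.448% of all genes tested) and 0 fell by limma. The 0.448% also counts genes placed in no class. A log2 change above 0 was found for 726 of them (78.1%), and the median was 0.66. With a class limit of 4-fold the median was 0.30. Library medians of this class, relative to each gene's mean, were 0.23, 0.24 and 0.51 in P22, P30 and P7, and -0.49, -0.46 and 0.003 in P11, P13 and P17. P17 was the control closest to the Fe-deprived plants. In young leaf the median change of 868 of these genes was -0.14.

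The other 4 classes had medians nearer to 0. The 3469 genes 2-fold to 8-fold higher in stem had a median log2 change of 0.02, with 22 rising (0.634%) and 13 falling (0.375%). The 12755 genes within 2-fold had -0.03, with 23 rising (0.180%) and 22 falling (0.172%). Genes 2-fold to 8-fold higher in leaf had 0.04, with 10 rising and 10 falling of 3968 (0.252% each). The 1553 genes at least 8-fold higher in leaf had 0.13, with 6 rising and 6 falling (0.386% each). Over all genes tested, 0.448% rose and 0.264% fell. In that last class the libraries ran 0.20, 0.16 and -0.16 in P22, P30 and P7 and 0.19, 0.01 and -0.34 in P11, P13 and P17, so P7 and P17 were the lowest of their groups. The same 2 libraries were the highest of their groups for the most stem-typical genes. In a bulk sample, fewer cells of a type and less RNA per cell cannot be told apart, and the part of tissue makeup in these medians was not tested.

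**Figure D5:**
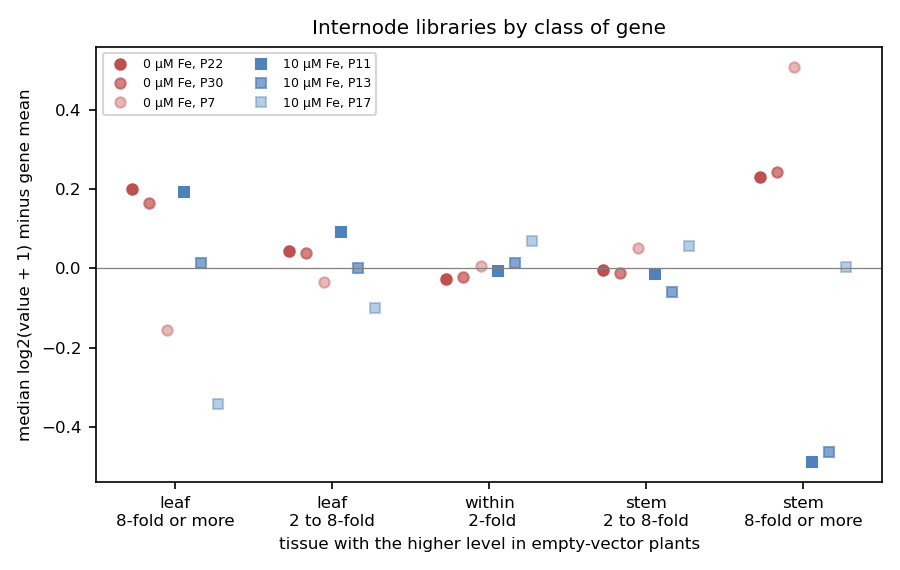
Median log2(value + 1) minus the gene's mean in each internode library, for 5 classes of gene by their stem-to-leaf ratio in empty-vector plants; red circles are the 3 Fe-deprived and blue squares the 3 control libraries. In the class at least 8-fold higher in stem the Fe-deprived libraries lie at 0.23 to 0.51 and the controls at -0.49 to 0.003.

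The internode genes were last set beside the effect of PtrbHLH011 overexpression. These libraries come from another poplar, another RNA kit and strand-specific libraries, and each table was tested on its own. In stem, 107 of the 131 rising genes were tested, and 42 (39.3%) fell in overexpression stems while 12 (11.2%) rose. Over all genes in stem 37.2% changed, 17.2% downward and 20.0% upward. The median log2 change of the 107 was -0.59, against -0.003 over all genes. Of the 77 falling genes 53 were tested in stem, and 13 (24.5%) fell and 12 (22.6%) rose. Stem had 2 libraries per genotype, and the 42 became 25 without overexpression replicate 1, 0 without overexpression replicate 2, 47 without empty-vector replicate 1 and 43 without empty-vector replicate 2. Negative changes were found for 75 of the 107 with all 4 libraries.

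In overexpression leaves, by contrast, more of them rose than fell. Of 91 rising internode genes tested there, 22 (24.2%) rose and 4 (4.396%) fell, against 12.7% and 8.61% of all genes (21.3% in either direction). Of 59 falling genes 10 (16.9%) fell and 2 (3.39%) rose. Without 1 leaf library 14 to 27 of the rising genes rose and 3 to 12 of the falling genes fell. Potri.003G116700 had 61.4 and 28.9 normalized counts in overexpression stems, against 337 and 213 in empty-vector stems (limma, log2 fold change -2.64 with SE 0.42, adjusted p = 0.00717). In leaf it had 11.4 ± 5.10 under overexpression and 14.3 ± 3.05 with the empty vector (SD, n = 3 each; limma, adjusted p = 0.589). Potri.008G177100 had 296 and 244 in overexpression stems, against 385 and 444 in empty-vector stems (limma, log2 fold change -0.62 with SE 0.16, adjusted p = 0.0316). Potri.003G139600 had 1146 and 1184, against 812 and 789 (limma, log2 fold change 0.54 with SE 0.09, adjusted p = 0.00941). Potri.017G014100 and Potri.003G083700 did not pass the test in stem (limma, adjusted p = 0.0750 and 0.428), and without overexpression replicate 2 only 1 gene of the whole stem table was called, none of those named here. Potri.001G451800 was listed at 0 in all 10 of these libraries.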

How the data were processed

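Transcripts were measured by paired-end RNA-seq (150 bp reads) in 22 libraries, of which the 6 libraries of the 3rd internode are described here. Groups, replicate numbers and plant codes came from the labels. The authors deposited 1 table per comparison, whose signal is the count of a gene over the size factor of its library. The submitters' processing notes name DESeq2 2.11.40.7, HISAT2 2.2.1 and StringTie 2.2.1 and no roles. How strand, overlapping genes and near-identical copies were counted, and on which genome build, was not given in the sources used here, so values of such genes are uncertain. For the internodes 100% of values were whole multiples of a step per library, within a tolerance of 0.001 steps. The multiples are called reads here, but StringTie's gene counts can be estimates rounded to whole numbers. The recovered totals were 29840597 to 63717656 reads per library. Floors cover counting error only.

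Genes that reached a value of 10 in 3 or more libraries were tested on log2(value + 1) with limma 3.58.1 (R 4.3.3) and its trend option, two-sided, with Benjamini-Hochberg adjustment over all genes tested and a threshold of 0.05. Log2 fold changes are on that scale, on which changes of low genes come out too small. The young leaf, overexpression leaf and overexpression stem tables were fitted in the same way, each on its own. The tissue difference was tested on the internode minus young leaf difference within each plant, between the Fe levels. edgeR 4.0.16 and DESeq2 1.42.0 on the recovered reads, a replicate block and leaving out libraries were alternatives. Deviations of libraries with the same replicate number from their group means correlated at 0.27, 0.12 and 0.48. The numbers were therefore treated as pairing the internode libraries, from the data and not from the labels. By Pearson's r on log2(value + 1), each Fe-deprived library was closest to the control of its own number. The values were 0.9314 for P22 and P11, 0.923 for P30 and P13, and 0.922 for P7 and P17. The margin was small for P22, with 0.9311 for P22 and P13. By genes at least 4-fold apart, P13 was instead the closest control to P22, P30 and P7, with 1328, 1552 and 1672 genes. In leaf the labels number the Fe-deprived plants in another order, so the pairs differ between tissues. The block in the tissue difference used the internode numbers.

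The IDs are not paired with names in the files, and 0 of them matched the reference table used here, so gene lists and cell type markers were not used and no gene is given a name or a role. By the rule for genes to name in that case, 2 genes that rose and 2 that fell were taken. They had the smallest value of the largest adjusted p over limma with and without the block and edgeR, a mean of at least 50 in the higher group and no overlap between the groups. Ties were broken by the largest unadjusted p, a step added after the data were seen. Members, tests and classes were chosen with earlier results of these data known.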

Additional observations from a re-analysis of the deposited data

Results flagged for a closer look

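The response to Fe deprivation differed between internode and young leaf, by a test of the difference within plants, for 135 genes. Among the named genes it differed for Potri.001G451800, whose internode minus leaf log2 response was 5.93; its call was lost with the replicate block and without P30, P7 or P13. Groups of 3 libraries were not examined for single outlying values.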

How the results depend on the processing

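The 208 calls in internode became 401 with the replicate block, 97 with edgeR, 3328 with DESeq2, 1485 with limma sample weights, 0 without both libraries of replicate 3, and 0 to 1499 without 1 library. All 97 edgeR calls were among the 208, and DESeq2 and the weighted fit called all 208. Other pseudocounts, filters, scalings and a 2-fold minimum left 166 to 264 calls. In these fits every called gene that was still tested kept its direction. Leaving out libraries could not alter it, since the groups of all 208 do not overlap. At an unadjusted p under 0.05, the fits with 0 calls held 3205 to 5737 genes; the cause of the lost calls was not tested, beyond fewer libraries. The 135 tissue differences became 1 with the replicate block and 0 to 156 without 1 plant. Of the 4 genes named by rule, 2 to 3 were called in young leaf under its alternatives; Potri.003G116700 lost its leaf call without 5 of the 6 leaf libraries. The replicate numbers were taken to pair the internode libraries, and the block changed no internode call of the 6 named genes. For 4 of them a low adjusted p with the block was part of the rule that chose them. Of all 208 calls 146 remained with the block. Chosen after seeing the data were the alternatives of the next 2 results and the counts in leaf and overexpression tables without 1 library. The median of the most stem-typical genes was 0.30 with a 4-fold class limit and 0.56 to 0.76 without 1 internode library. The larger spread among controls held at 81.1% to 82.8% of genes. The floor of 3 reads was 2.15 to 4.78 normalized counts.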
